A study of Mus musculus with 14 samples.

Results

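Cytosolic ribosomal protein genes encode the proteins of the ribosome that translates nuclear messages. They were taken from the count tables by their names, as genes called Rpl or Rps with a number, together with Rplp0, Rplp1, Rplp2 and Rpsa, without rows named as pseudogenes ("-ps") and with a mean of at least 1 CPM (read counts scaled to a common library total) in the table. The rule found 85 of the 55335 gene rows in each table, 50 of the large and 35 of the small subunit. They comprise 77 usual genes, 4 protein-coding paralogues (Rps27l, Rpl7l1, Rpl22l1 and Rpl36al) and 4 rows that GENCODE M21 annotates as pseudogenes (Rps4l, Rps3a2, Rps3a3 and Rpl6l).

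The cells were mouse intestinal stem cells, the dividing crypt cells that renew the gut lining, sorted for the EGFP that is expressed from the Lgr5 locus. In the first experiment all mice carried Lgr5CreERT2-IRES-GFP, a tamoxifen-inducible Cre recombinase active in Lgr5-expressing cells, and a floxed Chrm3 gene (Chrm3 flox/flox), which encodes the M3 muscarinic acetylcholine receptor. The groups were KO ES, KO NT, WT ES and WT NT with n = 2 libraries each. KO mice received tamoxifen (TAM) and WT mice vehicle, so injection and genotype changed together, and the injection preceded the ES procedure by 3 days. The labels do not spell out ES or NT, and the series title speaks of chronic stress and stem cell ageing. The ageing groups came from Lgr5CreERT2-IRES-GFP animals aged 18 months (old) and 2 months (young), with n = 3 libraries each. The labels do not tie libraries to separate animals, so p-values measure the spread between libraries, which may be technical.

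Each ribosome has a small subunit, which decodes the message, and a large subunit, which joins the amino acids, and most of their proteins are single-copy parts made in matched amounts. Many ribosomal protein messages begin with a run of pyrimidines (C and T), the TOP motif, through which the mTORC1 kinase controls their translation. Mammalian genomes also hold many reverse-transcribed copies of these genes, most of them inactive, and a few paralogues with patterns of their own. In the intestinal crypt, making ribosomes is one of the main costs of a dividing cell.

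The starts of 4 members are shown because a TOP run is known from many members of the family, and because Rps27 and Rplp2 are among the genes that differ most between libraries below, while Rps18 and Rps4x are among the most abundant. The sequences are from RefSeq (GRCm38.p6), 30 bases before and 20 bases from the annotated start, 5′ to 3′ on the gene's strand. Capitals mark the longest unbroken run of C and T that touches the 5 bases on either side of the start.
Rps18 (chr17:33955646-33955695, minus strand): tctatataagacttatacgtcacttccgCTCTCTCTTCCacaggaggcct
Rps27 (chr3:90213629-90213678, minus strand): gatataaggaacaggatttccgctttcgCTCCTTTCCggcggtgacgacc
Rplp2 (chr7:141447621-141447670, plus strand): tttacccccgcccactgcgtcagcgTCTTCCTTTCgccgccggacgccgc
Rps4x (chrX:102189372-102189421, minus strand): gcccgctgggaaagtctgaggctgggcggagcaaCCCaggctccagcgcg

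The run was 11 bases long at Rps18, 10 at Rplp2 and 9 at Rps27, whereas at the annotated start of Rps4x it was 3 bases long. The promoter table matched 61 of the 85 members. A run of at least 5 bases stood at 34 of these 61 starts (55.7%), against 35.1% of the 27025 genes in the table. Over the 300 bases of each promoter (250 before and 50 from the start), CCGGAA or its reverse complement TTCCGG, the core of ETS factor sites, was found in 55.7% of the members and 16.7% of all genes. GGGCGG or CCGCCC, the core of SP1 sites, was found in 63.9% of the members and 38.2% of all genes. AAGATGG or CCATCTT, part of the YY1 motif, was found in 16.4% of the members and 7.28% of all genes. These shares describe letters in fixed windows and do not show that a factor binds there.

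A second pair of sequences belongs to the member on which the ageing result turns. Rps4l is a one-exon copy of Rps4x, the X-linked gene for a protein of the small subunit, and lies at chr6:148354656-148355598 on the plus strand (GRCm38). It sits within the span of Tmtc1, which is on the minus strand, and overlaps none of its exons. The first 120 coding bases of Rps4x and the matching bases of Rps4l (chr6:148354710-148354829) are given with the 26 mismatches in capitals.
Rps4x (chromosome X, minus strand, spliced): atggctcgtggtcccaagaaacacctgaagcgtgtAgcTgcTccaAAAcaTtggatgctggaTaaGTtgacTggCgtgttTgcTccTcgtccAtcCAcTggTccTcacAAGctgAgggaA
Rps4l (chromosome 6, plus strand): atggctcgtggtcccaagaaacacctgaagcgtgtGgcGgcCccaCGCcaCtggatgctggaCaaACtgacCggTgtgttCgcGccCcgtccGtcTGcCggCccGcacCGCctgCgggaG

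Rps4l matched the coding sequence of Rps4x at 632 of 789 aligned bases (80.1%). Of its 157 mismatches, 127 fell at the third codon position, 23 at the first and 7 at the second. Although it is annotated as a transcribed processed pseudogene, its reading frame ran for 262 codons to a stop, against 263 codons in Rps4x. Rps4l is also easily told apart from its parent: 98.0% of its 100-base windows occurred in no transcript of another gene. This differs within the family. Rps3a2, Rps3a3 and Rpl6l were 99.5%, 98.9% and 98.7% identical to the coding sequences of Rps3a1 and Rpl6. Over the 85 members the share of unique 100-base windows ran from 1.63% (Rps27) through a median of 58.6% to 100%, and 35 members were under 50%. No source used here names the aligner or the counting tool, so for these genes the split of reads between gene and copy is uncertain.

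The libraries held 26683563 to 36882310 counts. Chrm3 had 256 and 213 counts in KO ES and 343 and 254 in KO NT, against 357 and 291 in WT ES and 355 and 386 in WT NT. It was lower in KO than in WT under ES (log2 fold change -0.67 ± 0.17 SE, adjusted p = 0.0329) and was not called under NT (-0.51 ± 0.17, adjusted p = 0.122), with edgeR's quasi-likelihood test and Benjamini-Hochberg adjustment. The deleted part is not given, so the whole-gene count checks the KO label weakly. Lgr5, the sorting gene, had 80.3 to 133 CPM in all 14 libraries. Of 5 markers each, all of the stem, goblet, Paneth, enterocyte and enteroendocrine cell markers were above 0 in every library, so the sorted cells carried RNA of differentiated cells as well. The summed stem cell markers (Lgr5, Olfm4, Ascl2, Smoc2 and Axin2) lay between 8631 and 13795 CPM.

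Levels are CPM after scaling by trimmed mean of M-values (TMM), and levels of different genes are compared per kilobase of the shortest principal transcript. Over the Chrm3 libraries Rps2 was highest, with 1491 CPM per kilobase. Rps14, Rps18 and the stalk proteins Rplp1 and Rplp0, which recruit elongation factors, followed with 1402, 1392, 1320 and 1308. In the ageing table the order was Rps2, Rplp0, Rplp1, Rps18 and Rps4x, with 1495, 1273, 1243, 1228 and 1173 CPM per kilobase. The 77 usual genes had a median of 780 CPM per kilobase in the Chrm3 table and 719 in the ageing table. The lowest of them, Rps20 with 124 and 123, has an annotated transcript of 3706 bases, and its level per kilobase depends on that annotation. All 8 paralogues and pseudogenes ranked between 77 and 85 of 85 in the Chrm3 table. Rpl22l1, the paralogue of Rpl22, led them with 261 CPM per kilobase, and Rps3a3 was last with 25.3.

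The 1 CPM limit cut where few genes lay. Rps3a3 was the lowest member, with a mean of 20.1 CPM in the Chrm3 table. Just outside was Rpl3l, a paralogue known from muscle, with 7 counts over the 8 Chrm3 libraries and 2 over the 6 ageing libraries. Rpl10l and Rpl39l, known from testis, and Rps12l1 had 0 counts in all 14 libraries. All 85 members passed the count filter in both tables.

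Members made up 5.23% and 4.49% of all counts in KO ES, 5.22% and 4.59% in KO NT, 5.15% and 4.97% in WT ES and 5.24% and 5.18% in WT NT. In the ageing table the shares were 4.75%, 4.82% and 4.22% in old and 4.72%, 4.79% and 4.29% in young. 4 libraries stood below the rest of their table: replicate 2 of KO ES, replicate 2 of KO NT, and replicate 3 of both old and young. Means were 4.595% ± 0.328 in old and 4.597% ± 0.271 in young (SD, n = 3 each), which differ by less than the spread between libraries. They were 4.86% ± 0.525 in KO ES and 5.06% ± 0.123 in WT ES (SD, n = 2 each), and those groups overlapped. KO NT (4.91% ± 0.445) overlapped KO ES and WT NT (5.21% ± 0.0477), whereas both WT ES libraries lay below both WT NT libraries. These shares were not tested. Large subunit counts were 1.39 to 1.42 times small subunit counts in all 14 libraries, the low ones included.

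**Figure D1:**
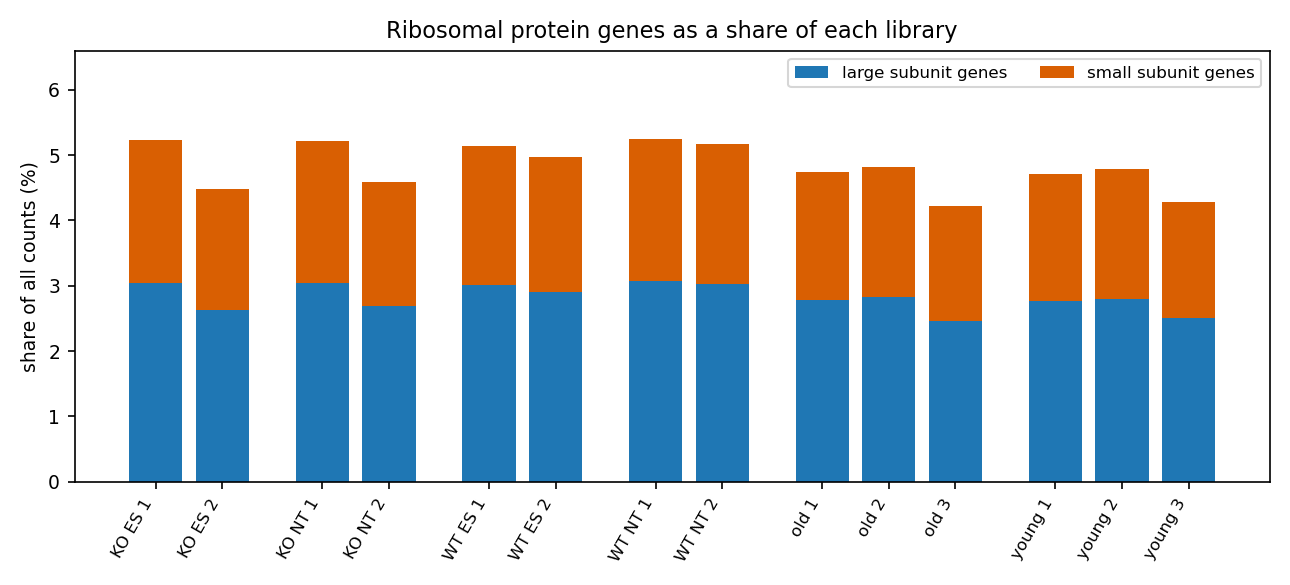
Counts of large subunit genes (blue) and small subunit genes (orange) as a percent of all counts, 1 bar per library (KO ES, KO NT, WT ES and WT NT with 2 libraries each, old and young with 3). The second KO libraries (4.49% and 4.59%) and the third old and young libraries (4.22% and 4.29%) are the lowest of their tables, and the split between subunits stays alike.

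In those 4 libraries members with short transcripts had lower medians than those with long ones, with exceptions in both directions. Rps29, a small zinc-binding protein of the small subunit, had 227 CPM in KO ES replicate 2 and 239 in KO NT replicate 2, against 309.5 to 339 CPM in the other 6 Chrm3 libraries. It had 211 CPM in old replicate 3 and 225 in young replicate 3, against 318 to 337 CPM in the other 4. Rps27 had 176 and 193 CPM in the second KO ES and KO NT libraries and 250.3 to 279 in the others of that table. Rplp2, the smaller stalk protein, had 264 and 271 CPM in the third old and young libraries and 366 to 405 in the other 4. The longer Rpl4 had 1804 to 1926 CPM over the Chrm3 libraries and 1646 to 1747 over the ageing libraries.

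Between replicates 2 and 1 of KO ES, 84 of the 85 members were lower in replicate 2, with a median log2 difference of -0.21. The median was -0.29 over the 19 members with transcripts up to 500 bases and -0.15 over the 33 above 800 bases. For KO NT 77 of 85 were lower in replicate 2 (median -0.17), for old 76 of 85 were lower in replicate 3 than in replicate 1 (median -0.16), and for young 78 of 85 (median -0.13). These pairs were picked for a library with low member counts, so a majority of lower members follows from that choice. In pairs not picked so, replicate 2 was lower than replicate 1 for 71 of 85 (WT ES), 52 (WT NT), 15 (old) and 26 (young). The share over all genes is not given here. Across the 85 genes, which are not independent replicates and share these libraries, the difference in the picked pairs had a Pearson r with log2 transcript length of 0.45 in KO ES, 0.43 in KO NT, 0.45 in old and 0.38 in young. Single genes departed from this: Rpl37, with 835 bases, was at -0.48 in KO ES and Rps20, with 3706 bases, at -0.43 in old and -0.40 in young, while Rps10, with 498 bases, was at 0.028 in old. Short genes outside the family shifted too, by less than the short members. In old replicate 3 the 94 other genes up to 500 bases with a mean log2 CPM over 5 lay at a median of -0.14 from their own mean over the table's libraries and the short members at -0.24. In KO NT replicate 2, where 8.74% of counts were mitochondrial against 6.42% to 7.53% in the other Chrm3 libraries, the 99 other short genes lay at -0.12 and the short members at -0.16. In KO ES replicate 2 the other short genes lay at -0.067 and the short members at -0.20, and in young replicate 3 at -0.055 and -0.20. The cause of these shifts was not tested.

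**Figure D2:**
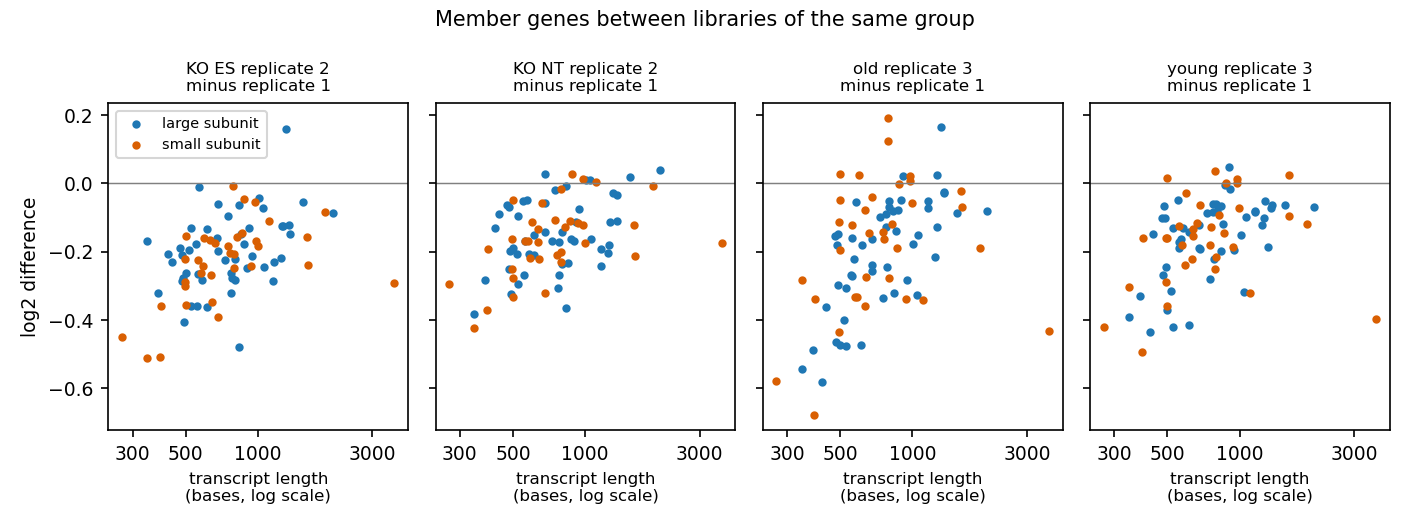
Log2 difference of each of the 85 members between a low library and replicate 1 of its group (vertical axis) against annotated transcript length in bases (log axis), for KO ES, KO NT, old and young, with large subunit genes in blue and small subunit genes in orange. Most points lie below 0, which follows from picking libraries with low member counts. The difference has a Pearson r with log2 length of 0.38 to 0.45, with long transcripts such as Rps20 also among the low ones.

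Ribosomal protein genes gave no call for ES in WT. None of the 85 members passed at an adjusted p under 0.05 in either direction, against 4.28% of the 17364 genes tested (2.49% higher and 1.79% lower; edgeR). None had an unadjusted p under 0.05, against 3207 of the 17364 genes, and DESeq2 called 0. The edgeR fit shares 1 estimate of the spread over all 4 groups. Members differed more between the KO replicates (median log2 difference -0.21 in ES and -0.17 in NT) than between the WT replicates (-0.04 and -0.01). The part of that spread in these values was not tested. The median log2 fold change was -0.03 over the members, -0.03 over the large subunit and -0.03 over the small subunit, against -0.0034 over all genes tested, and single members ran from -0.15 to 0.18. The 95% interval lay within 1.5-fold of no change for all 85 members. Both WT ES libraries were below both WT NT libraries for 38 members, where 26.9% of all genes behaved so, and above them for 5, where 26% did.

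The members nearest to a call under ES in WT were Rps7, Rpl3 and Rpl15, which were lower. Rps7, a small subunit protein, had 788 and 818 CPM in WT ES against 892 and 867 CPM in WT NT (-0.13 ± 0.07, adjusted p = 0.358 with edgeR). Rpl3, which lies by the peptidyl transferase centre, averaged 1296 ± 25.3 CPM in WT ES and 1403 ± 19.4 CPM in WT NT (SD, n = 2 each; -0.11 ± 0.06, adjusted p = 0.369 with edgeR). Rpl15 had 406 and 384 CPM in WT ES, against 438 and 439 CPM in WT NT (-0.15 ± 0.10, adjusted p = 0.466 with edgeR). The groups did not overlap for any of the 3, and all 3 passed when only the WT libraries were fitted, with adjusted p of 0.0366, 0.0482 and 0.029. Rpl26 was the member with the highest fold change, at 0.18 ± 0.16 (adjusted p = 0.651 with edgeR), and its groups overlapped.

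ES in KO likewise gave no call. None of the 85 members passed with edgeR, against 0.461% of all genes tested (0.386% higher and 0.0749% lower), and DESeq2 called 0. No member had an unadjusted p under 0.05, against 1409 of the 17364 genes. The median was -0.02 over the members, -0.01 over the large and -0.03 over the small subunit, with members from -0.09 to 0.17, and the interval lay within 1.5-fold for 84 of them. Both KO ES libraries were above both KO NT libraries for 1 member, where 17.1% of all genes behaved so, and below them for 4, where 16.1% did. Rps4l had the highest value, with 28.9 and 28.8 CPM in KO ES and 25.8 and 25.5 CPM in KO NT (0.17 ± 0.14, adjusted p = 0.879 with edgeR). Rpl38, which in mice controls the translation of homeobox messages, had 126 and 112 CPM in KO ES and 124 and 95.3 CPM in KO NT, with overlapping groups (0.11 ± 0.11, adjusted p = 0.912 with edgeR). The ES effect in KO minus that in WT had a median of 0.015 over the members and passed for 0 of 85, with 0 under an unadjusted p of 0.05 and 0 by DESeq2. Over all genes 0.0979% passed with edgeR (0.0173% higher and 0.0806% lower), and 1967 of 17364 had an unadjusted p under 0.05. The smallest p belonged to Rpl3 (0.11 ± 0.09, adjusted p = 0.724 with edgeR) and Rpl22l1 (0.11 ± 0.10, adjusted p = 0.754 with edgeR). The interval of that difference lay within 1.5-fold for 81 members.

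**Figure D3:**
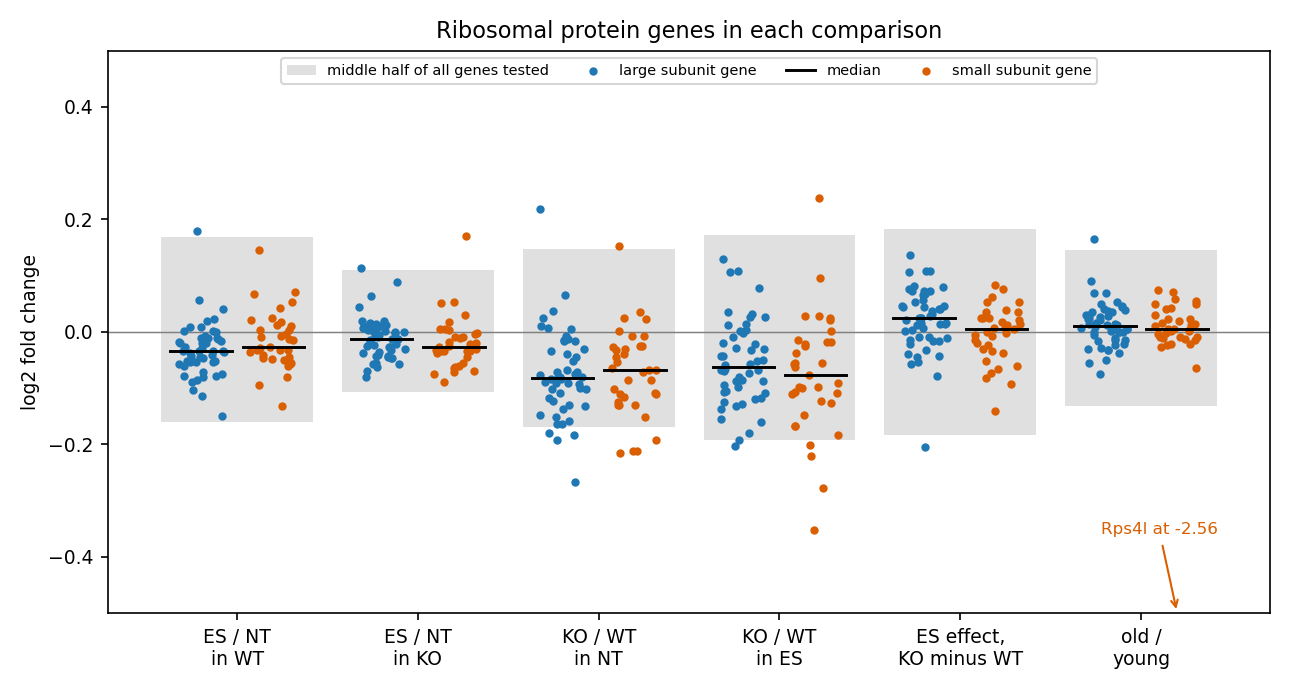
Log2 fold change of each ribosomal protein gene in the 6 comparisons, large subunit in blue and small subunit in orange, with black lines at the subunit medians and grey boxes from the lower to the upper quartile of all genes tested. Members lie between -0.35 and 0.24 except Rps4l, whose value of -2.56 in old against young lies outside the axis (arrow).

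KO against WT gave no call with edgeR, and the members' medians were below 0. Under NT, 0 of 85 members passed with edgeR, against 4.59% of all genes tested (2.46% higher and 2.13% lower), and DESeq2 called 0. An unadjusted p under 0.05 was found for 1 member, against 2991 of the 17364 genes. The median was -0.08 over the members, -0.08 over the large and -0.07 over the small subunit, against -0.01 over all genes. The 19 short members had a median of -0.11 and the 33 long ones -0.03. Both KO NT libraries were below both WT NT libraries for 37 members, where 25.4% of all genes behaved so, and above them for 7, where 22.7% did. Leaving out KO NT replicate 2 brought the members' median to 0.0089, and leaving out KO NT replicate 1 brought it to -0.16. Replicate 2 was set apart for its low member counts, so leaving it out raises the median by that choice. Each of these values rests on 1 KO NT library. Rpl36, a large subunit protein, had 271 and 222 CPM in KO NT and 294 and 299.5 CPM in WT NT (-0.27 ± 0.11, unadjusted p = 0.0353, adjusted p = 0.241 with edgeR). It passed with Rpl38 only when the KO NT group was reduced to replicate 2. Rpl22l1 had 142 and 137 CPM in KO NT against 148 and 157 CPM in WT NT, without overlap (-0.13 ± 0.07, adjusted p = 0.378 with edgeR).

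Under ES, 0 of 85 members passed between KO and WT with edgeR, against 8.14% of all genes tested (3.46% higher and 4.68% lower). An unadjusted p under 0.05 was found for 1 member, against 3976 of the 17364 genes, and DESeq2 called 1 member, Rps2. The median was -0.07 over the members, -0.06 over the large and -0.08 over the small subunit, and -0.12 and -0.02 over the short and long members. Both KO ES libraries were above both WT ES libraries for 3 members and below them for 7, where 27% and 26.3% of all genes behaved so. With single libraries left out the members' median ran from -0.18 to 0.030. The highest value was that without KO ES replicate 2, a library set apart for its low member counts, so that choice raises it. Rps2, a small subunit protein and a target of arginine methylation, had 1683 and 1483 CPM in KO ES against 1363 and 1323 CPM in WT ES. Its groups did not overlap, and its log2 fold change of 0.24 ± 0.08 missed the threshold with edgeR (adjusted p = 0.0839) and met it with DESeq2 (adjusted p = 0.025) and with the replicate number as a block (adjusted p = 0.0244). Under NT Rps2 had 1692 and 1498 CPM in KO against 1446 and 1421 CPM in WT, again without overlap (0.15 ± 0.08, adjusted p = 0.342 with edgeR). With both second KO libraries left out, the log2 fold change of Rps2 was 0.33 under ES and 0.25 under NT. Those of Rps7 and Rpl15 under ES were 0.18 and 0.27. The libraries left out were chosen because the members were low in them, so leaving them out raises the members' KO values. These values rest on 1 library for each KO group and are given without a test. Rpl11, which with 5S ribosomal RNA can bind Mdm2, differed by 0.11 ± 0.06 on the log2 scale (adjusted p = 0.272 with edgeR). Rps27 had the lowest value, at -0.35 ± 0.20 (adjusted p = 0.39 with edgeR).

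Rows named as pseudogenes of ribosomal proteins, which the rule leaves out, gave calls in KO against WT and 1 call for ES in WT. There are 275 such rows, and their counts were 6.69 to 6.76 per 100 member counts in the KO libraries against 6.94 to 7.04 in the WT libraries. Of 131 tested, 7 fell in KO under NT, where 2.13% of all genes did, and 7 fell under ES, where 4.68% of all genes did, so the share under ES is near that of all genes. With single libraries left out the count was 5 to 11 under NT and 6 to 9 under ES. All 5 goblet cell markers fell in KO against WT under both NT and ES, with 3 tuft cell markers under NT and 2 under ES. Also lower were 2 enteroendocrine and 2 Paneth cell markers under NT, and 4 enteroendocrine, 2 Paneth and 2 enterocyte markers under ES. Under ES 3 stem cell markers rose. The part of these cells in the pseudogene values was not tested. The 7 names were shared by both comparisons, Rps2-ps13, Rps2-ps6, Rps13-ps1, Rps15a-ps6, Rps15a-ps7, Rps15a-ps8 and Rpl15-ps2. None rose, and DESeq2 called 6 lower and 0 higher in each. Rps2-ps13 (chrX:52898588-52899469) averaged 14.6 ± 1.52 CPM in KO ES and 38.8 ± 0.795 CPM in WT ES (SD, n = 2 each; -1.41 ± 0.10, adjusted p = 6.6e-06 with edgeR). Rps2-ps6 on chromosome 14 averaged 18.8 ± 2.34 CPM in KO ES and 47.0 ± 1.44 CPM in WT ES (-1.32 ± 0.11, adjusted p = 1.78e-05 with edgeR). Rps15a-ps8 lay near the floor, with means of 0.0301 CPM in KO ES and 0.846 CPM in WT ES. The call for ES in WT was Rps13-ps1, with means of 25.5 CPM in WT ES and 34.7 CPM in WT NT (-0.44 ± 0.09, adjusted p = 0.0248 with edgeR). It was 1 of 131 tested, where 1.79% of all genes fell. The 7 copies lie on 7 chromosomes. Their parents Rps13, Rps15a and Rpl15 had log2 fold changes of -0.06 ± 0.09, -0.06 ± 0.11 and 0.13 ± 0.10 in KO against WT under ES and were not called. Rps2, the parent of 2 of the copies, had 35.3% of its 100-base windows unique to it, so reads can pass between parent and copy in counting. Their part in the Rps2 value was not tested.

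With age, 1 member of the family was called. Rps4l had 5.97, 6.58 and 6.82 CPM in old against 39.0, 42.6 and 32.9 CPM in young, from 198, 233 and 218 counts in old and 1291, 1499 and 1174 counts in young. All old libraries were far below all young ones, and the gene fell by 2.56 ± 0.12 on the log2 scale, or 5.91-fold (95% interval -2.82 to -2.31, adjusted p = 3.61e-07 with edgeR, lower in 3 of 3 old libraries). By p it ranked 2 of the 16807 genes tested. The other 84 members did not pass, so 1 of 85 was called, against 7.76% of all genes (4.35% higher and 3.42% lower), and DESeq2 also called this gene alone. The call held under each of the alternatives run, with log2 fold changes from -2.70 to -2.48. In sorted bulk RNA, fewer cells that express a gene and less RNA per cell cannot be told apart.

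Rps4x, the parent, had 1150, 1161 and 1155 CPM in old against 1116, 1153 and 1126 CPM in young (0.03 ± 0.05, adjusted p = 0.812 with edgeR). The copy thus stood at 0.642% to 0.729% of Rps4x per kilobase in old and at 3.60% to 4.57% in young. In the Chrm3 table, which was scaled apart from the ageing table, Rps4l had 28.9 and 28.8 CPM in KO ES, 25.8 and 25.5 in KO NT, 33.5 and 23.0 in WT ES and 24.5 and 26.8 in WT NT, and both KO ES libraries were above all 4 NT libraries, while WT ES overlapped every other group. Its log2 fold changes there were 0.15 ± 0.14 for ES in WT, 0.00 ± 0.14 for KO in NT and 0.03 ± 0.14 for KO in ES, and none was called. Of 16 other tested genes within 1 Mb of Rps4l, 1 rose in old (Dennd5b, 0.29 ± 0.08) and 0 fell. Tmtc1, whose span holds Rps4l, had 1.39, 0.367 and 0.750 CPM in old against 1.15, 0.910 and 1.09 CPM in young and was not called.

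**Figure D4:**
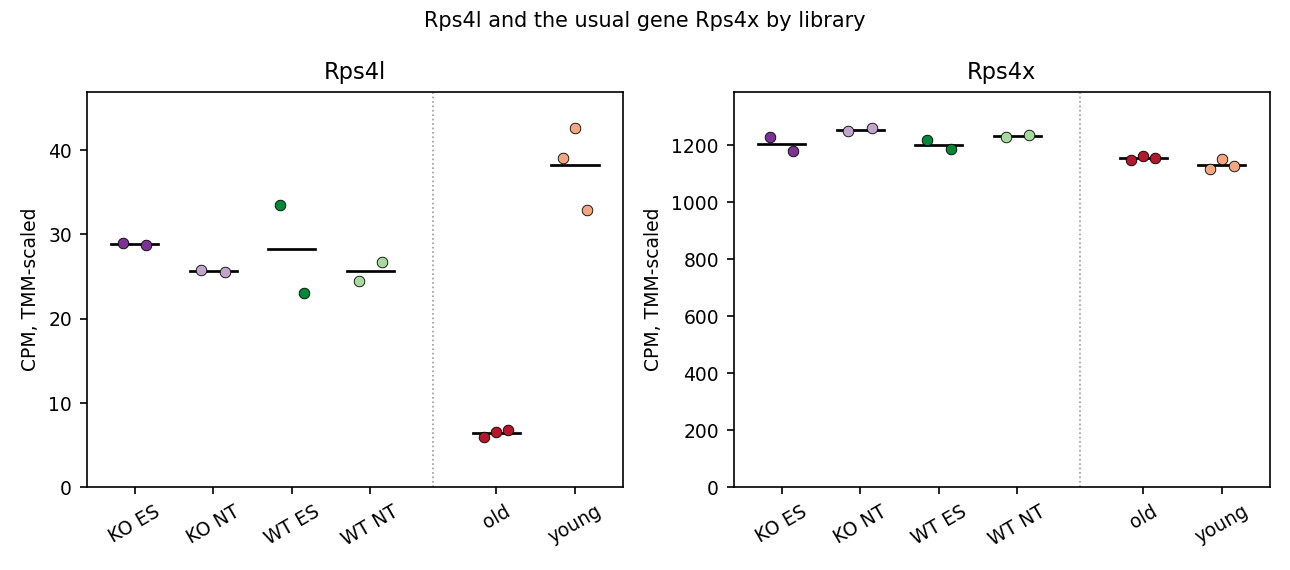
TMM-scaled CPM of Rps4l (left) and Rps4x (right) in each library, with a bar at the group mean; the dotted line parts the 2 tables, which were scaled separately. Rps4l lies between 5.97 and 6.82 CPM in old and between 32.9 and 42.6 CPM in young, while Rps4x lies between 1116 and 1161 CPM in both.

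The remaining members were not called in old cells. The median log2 fold change was 0.0079 over the 85, 0.011 over the large and 0.0049 over the small subunit, against -0.0012 over all genes, and 54 of the 85 had a value above 0. Apart from Rps4l, values ran from -0.08 (Rpl7l1) to 0.17 (Rpl26), and the 95% interval lay within 1.5-fold of no change for 81 members. All old libraries were above all young ones for 1 member, where 13.2% of all genes behaved so, and below them for 2, Rps4l included, where 13.2% did. The members with the smallest p above 0 were Rpl15 (0.07 ± 0.05, adjusted p = 0.51 with edgeR) and Rpl29 (0.07 ± 0.06, adjusted p = 0.576 with edgeR). Other cells moved with age: the summed T cell markers (Cd3e, Cd3g, Cd8a, Ptprc and Gzma) were 120 to 142 CPM in old against 19.4 to 31.9 CPM in young, and all 5 rose. Red cell markers (Hba-a1, Hbb-bs and Hbb-bt) summed to 1.91 to 4.83 CPM in old and 0.315 to 0.669 CPM in young, and all 3 rose. Tuft cell markers (Dclk1, Avil, Trpm5, Il25 and Pou2f3) summed to 64.7 to 65.9 CPM in old and 118 to 146 CPM in young, and all 4 that were tested fell. Enteroendocrine cell markers summed to 300.2 to 440.4 CPM in old and 208 to 232 CPM in young, and Chgb and Gcg rose. Of the Paneth cell markers Ang4 and Mptx2 fell, and of the goblet cell markers Clca1 fell while Fcgbp and Tff3 rose. Of the stem cell markers Ascl2 fell (-0.63 ± 0.11), and of the enterocyte markers Fabp1 rose (0.93 ± 0.16). The part of these cells in the Rps4l value was not tested.

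Ratios of the other paralogues to their usual genes ranged less. Rpl22l1 stood at 32.9% to 37.1% of Rpl22 per kilobase over all 14 libraries, and Rpl36al, a paralogue of the X-linked Rpl36a, at 44.9% to 54.3%. Rpl7l1 stood at 8.25% to 11.1% of Rpl7. Rps27l, a p53-induced paralogue of Rps27, stood at 31.0% in KO ES and 28.0% in KO NT on average, against 24.1% in WT ES and 23.9% in WT NT. Rps27l itself had 98.5 and 88.4 CPM in KO ES against 92.7 and 96.8 CPM in WT ES, and Rps27 was low in the second KO libraries, which had the highest ratios of their groups. Among the pseudogenes, Rps3a2 stood at 16.7% to 19.3% of Rps3a1 and Rpl6l at 5.199% to 6.41% of Rpl6, values that depend on how near-identical reads were assigned.

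Parts of the ribosome that the name rule leaves out gave no call either. Fau, which encodes a small subunit protein fused to a ubiquitin-like protein, and Rack1, a scaffold of the small subunit, were not called in any of the 6 comparisons (edgeR, 0 with an unadjusted p under 0.05, 0 by DESeq2). Their log2 fold changes ran from -0.09 (Rack1 in KO against WT under ES) to 0.07 (Fau in old against young). Fau had 260, 278 and 198 CPM in old against 243, 254 and 205 CPM in young. Of 78 mitochondrial ribosomal protein genes, 0 passed in any comparison with edgeR or DESeq2, with 3, 2, 11, 7, 2 and 7 under an unadjusted p of 0.05 for ES in WT, ES in KO, KO in NT, KO in ES, the KO minus WT contrast of ES effects and ageing.

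Factors that assemble ribosomes gave calls in 4 of the 6 comparisons, and their difference from the members was not tested. Of 57 tested assembly genes, 19 fell and 0 rose in WT ES against WT NT with edgeR, where 1.79% of all genes fell, with a median log2 fold change of -0.23 (43 had an unadjusted p under 0.05, and DESeq2 called 21 lower and 0 higher). Rrp1b, a nucleolar protein, had 53.7 and 53.4 CPM in WT ES against 78.7 and 75.4 CPM in WT NT (-0.52 ± 0.06, adjusted p = 0.00147 with edgeR). Noc2l, a nucleolar protein, had 144 and 149 CPM in WT ES against 188 and 185 CPM in WT NT (-0.34 ± 0.06). Wdr43, of the small subunit processome, had 136 and 135 CPM in WT ES against 176 and 174 CPM in WT NT (-0.37 ± 0.06). The groups did not overlap for these 3 genes. In KO against WT under NT, Rrp1b (-0.32 ± 0.06) and Nle1 (-0.36 ± 0.09) fell and 0 rose, where 2.13% of all genes fell, with a median of -0.02. In KO ES against KO NT none of the 57 passed, 1 had an unadjusted p under 0.05 and DESeq2 called 0, with a median of -0.02.

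Under ES, 11 of the 57 assembly genes rose in KO against WT and 0 fell, where 3.46% of all genes rose, with a median of 0.21. Ncl, the nucleolar protein nucleolin, had 1653 and 1941 CPM in KO ES against 1333 and 1340 CPM in WT ES (0.43 ± 0.09, adjusted p = 0.0131 with edgeR). Lyar had 78.0 and 89.5 CPM in KO ES against 65.3 and 61.8 CPM in WT ES (0.40 ± 0.08). For the ES effect in KO minus that in WT, the 57 genes had a median of 0.22, and 0 passed with edgeR, while 26 had an unadjusted p under 0.05 and DESeq2 called 2. Initiation factors had 0 of 26 called for ES in WT (7 under an unadjusted p of 0.05, DESeq2 1). In KO against WT under ES 8 of the 26 rose, where 3.46% of all genes rose. Among them were Eif5a (0.29 ± 0.06), Eif6 (0.27 ± 0.06) and Eif2b3 (0.45 ± 0.10). That count of 8 was 0 without KO ES replicate 2 or either WT ES library, 3 without either WT NT library and 10 without either KO NT library. Of 16 RNA polymerase I genes, Polr1b (-0.36 ± 0.06) and Polr1e (-0.50 ± 0.11) fell with ES in WT, and Polr1b fell in KO against WT under NT (-0.28 ± 0.06). In old cells 8 of 57 assembly genes fell and 0 rose, where 3.42% of all genes fell, among them Utp18 (-0.31 ± 0.07), Ddx56 (-0.31 ± 0.07) and Nmd3, the export adaptor of the large subunit (-0.28 ± 0.06). Of the 26 initiation factors Eif1 rose in old (0.21 ± 0.06, adjusted p = 0.0499 with edgeR) and 0 fell, where 4.35% of all genes rose. An unadjusted p under 0.05 was found for 12 of the 26, and their median was -0.08.

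**Figure D5:**
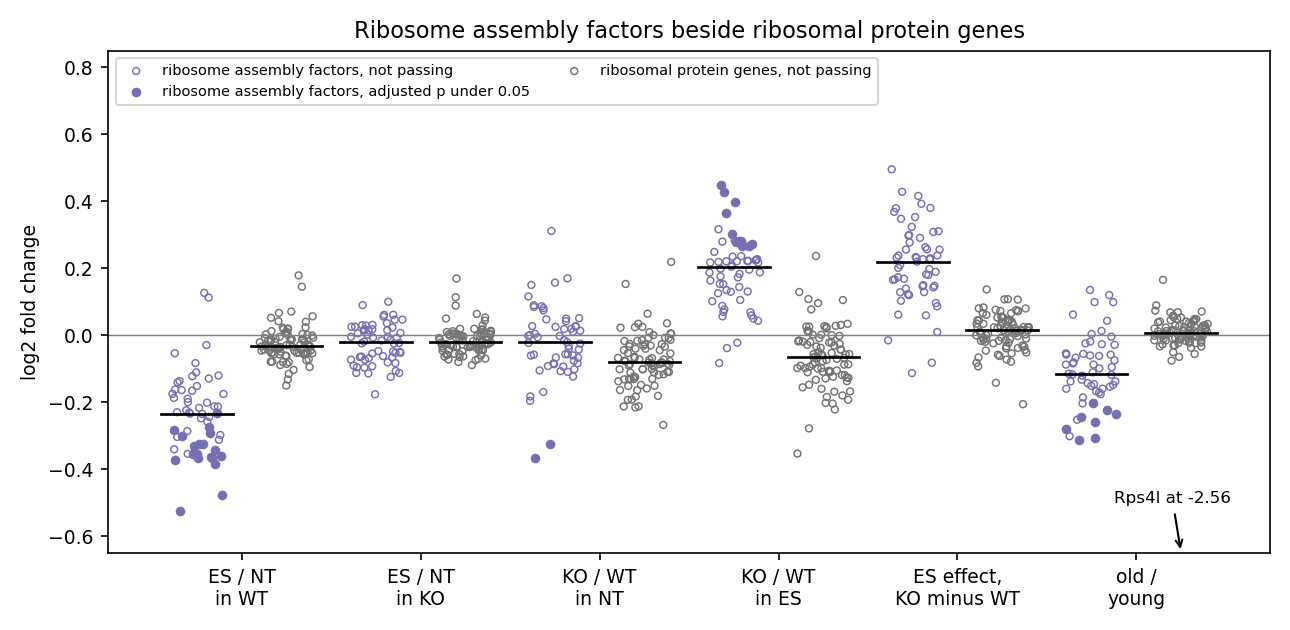
Log2 fold change of 57 ribosome assembly genes (purple) beside the 85 ribosomal protein genes (grey) in the 6 comparisons, with filled points for an adjusted p under 0.05 and black lines at the medians; Rps4l at -2.56 lies outside the axis. The assembly genes have medians of -0.23 for ES in WT and 0.21 for KO against WT under ES, where the ribosomal protein genes have -0.03 and -0.07.

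The counts of assembly genes depend on single libraries. For ES in WT the count of 19 fell to 1 or 2 when a WT ES library was left out and to 0 or 1 when a WT NT library was. It was 20 to 26 when a KO library was left out and 33 without both second KO libraries. For KO against WT under ES the count of 11 was 0 without KO ES replicate 2, 3 or 1 when the first or second WT ES library was left out, 4 without either WT NT library, and 22 and 20 without KO NT replicates 1 and 2. The count of 8 in old was 0 without old replicate 1 or young replicate 2, 2 without old replicate 2, 1 without young replicate 1, 4 without young replicate 3 and 12 without old replicate 3. Cell type markers differed between these groups. Stem cell markers summed to 8631 to 9026 CPM in WT ES and 11226 to 11408 CPM in WT NT, and goblet cell markers (Muc2, Fcgbp, Tff3, Clca1 and Agr2) to 9158 to 9409 CPM in WT ES and 4577 to 4702 CPM in WT NT. In KO ES the stem cell sum was 11448 to 12456 CPM and the goblet cell sum 3870 to 3963 CPM. In KO NT these sums were 11687 to 13795 CPM and 2203 to 2410 CPM. With ES in KO, all 5 goblet and 2 Paneth cell markers rose and 0 of 5 stem cell markers were called, while 0 of 57 assembly genes passed. Enteroendocrine cell markers summed to 235 to 247 CPM in WT ES and 139 to 151 CPM in WT NT (3 of 5 rose), and 3 of 5 Paneth cell markers rose. Enterocyte markers summed to 641 to 852 CPM in WT ES and 393 CPM in both WT NT libraries, and 0 of 5 were called (edgeR, 1 with an unadjusted p under 0.05). In KO against WT under ES, all 5 goblet, 4 enteroendocrine, 2 Paneth and 2 enterocyte markers fell and 3 stem cell markers rose. The part of these cells in the assembly gene values was not tested.

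Other lists tied to translation gave 0 to 3 calls in each comparison. Of 23 elongation factors and TOP messages outside the ribosome, Npm1, a nucleolar chaperone, fell with ES in WT (-0.31 ± 0.07, adjusted p = 0.0335 with edgeR) and Tmsb10 rose (0.26 ± 0.06). In KO against WT under ES, Nap1l1 (0.38 ± 0.07), Hnrnpa1 (0.24 ± 0.06) and Npm1 (0.27 ± 0.07) rose, 3 of 23 where 3.46% of all genes rose, and the count was 0 to 3 with single libraries left out. Nap1l1 also rose in KO against WT under NT (0.28 ± 0.07). Of 24 genes of translation control by mTORC1, Deptor, an inhibitor of mTOR, fell in KO against WT under ES (-0.34 ± 0.06) and rose in old (0.25 ± 0.07), and Eef2k, the kinase of elongation factor 2, fell in old (-0.40 ± 0.07). Of 20 genes of ribosome quality control and ribosomal protein chaperones, Heatr3, which in human cells helps to import Rpl5, fell with ES in WT (-0.37 ± 0.07) and rose in KO against WT under ES (0.29 ± 0.06). Aarsd1 (0.56 ± 0.11) and Bccip (0.28 ± 0.08) rose there too, 3 of 20 where 3.46% of all genes rose, and the count was 0 to 4 with single libraries left out. In old, Ascc2 rose (0.20 ± 0.05).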

How the data were processed

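The authors deposited unnormalized read counts for each Ensembl gene, in a table for the Chrm3 experiment and another for ageing. Per the labels, polyadenylated RNA from 1 µg of total RNA was made into strand-specific libraries. The submitters' processing notes name mm10 and FastQC 0.11.2; aligner and counter are not named there.

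Each table was fitted apart in edgeR 4.0.16 (R 4.3.3): filterByExpr, TMM factors, robust quasi-likelihood fit with one mean per group, no replicate block, and Benjamini-Hochberg adjustment over all tested genes at 0.05. The ± after a log2 fold change is an approximate standard error from its F statistic, and after a level the SD. The fit was tested on simulated data. Positions and transcript lengths are from GENCODE M21 (GRCm38), using the shortest basic APPRIS principal transcript. DESeq2 1.42.0, other scalings and filters, the groups compared alone, the replicate number as a block and each library left out were alternatives. The non-robust fit and leaving out the second KO or the third ageing libraries were added after seeing the data.

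Members and lists were chosen with earlier results of these data known. Genes were named by rule: the paralogues with their usual genes, up to 5 passing members per direction and comparison or the 2 with the smallest p, the 5 highest per kilobase, those nearest the 1 CPM limit, and up to 3 passing genes per list. Rps21, Rps28, Rps29, Rplp2, Rpl4, Rpl15, Rpl26, Rps27, the pseudogene rows and the parents of the pseudogenes were named after their values were seen. Replicate pairs differed by more than sampling noise (chi-square per degree of freedom 3.59 to 25.8), so none was merged. Libraries held 26683563 counts or more; counting error is part of the spread between libraries and weighs most for low members such as Rps4l, with 198 to 233 counts in old.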

Additional observations from a re-analysis of the deposited data

How the results depend on the processing

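The ageing call of Rps4l held its direction and its side of the threshold under all 15 alternatives for that table. No result reversed among called values. The count of members higher in KO against WT under ES was 0 and became 1 with DESeq2 and 1 with the replicate block (Rps2, adjusted p = 0.0244 with edgeR). The log2 fold change of Rps2 there was 0.24 without KO NT replicate 1 and 0.23 without KO NT replicate 2. Without KO ES replicate 1, those of Rps28, Rps21 and Rps29 were -0.46, -0.36 and -0.55. These fits leave 1 library in a KO group, so their values are given without a test. The members' median in KO against WT under ES was -0.18 to 0.030 with single libraries left out. For ES in WT, the count lower was 3 in the groups compared alone and 2 with both second KO libraries left out. For KO against WT under NT, the members' median was -0.16 to 0.0089 with single libraries left out. The cause of these moves was not tested. Counts over all genes moved more: with single libraries left out, ES in WT had 25 to 914 genes higher (433 in the fit reported) and 10 to 569 lower (310), KO against WT under ES 133 to 991 higher (601) and 300 to 1236 lower (813), KO against WT under NT 78 to 577 higher (427) and 101 to 457 lower (370), and old 399 to 765 higher (731) and 247 to 764 lower (574). Over the 1944 pairs of a named gene and an alternative, 1934 kept their side of the threshold and 10 gained a call; in 176 a value that passed in neither changed its sign.

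As a percent of nuclear counts, leaving out mitochondrially encoded genes, the members' share was 5.61% and 4.86% in KO ES, 5.62% and 5.03% in KO NT, 5.50% and 5.34% in WT ES, 5.62% and 5.56% in WT NT, 5.08%, 5.17% and 4.54% in old, and 5.03%, 5.10% and 4.61% in young. No label says that a replicate number marks a shared animal, batch or day, so the libraries were not taken as paired. Deviations of same-numbered libraries correlated by at most 0.0895 over all tested genes, though by 0.60 to 0.85 over the members between old and young and 0.81 between KO ES and KO NT. Groups of 2 and 3 libraries, shared reads between near-identical copies and annotated transcript lengths limit these values.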
